A study of Mus musculus with 12 samples.

Results

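The genes described here are those of the mouse major histocompatibility complex (MHC) and of antigen presentation, followed in the prostate of mice homozygous for a null allele and of their wild-type counterparts. They were taken by name: every gene whose symbol begins with H2-, together with B2m, Tap1, Tap2, Tapbp, Psmb8, Psmb9, Psmb10, Cd74, Ciita, Nlrc5, Cd1d1 and Erap1. This gave 54 of the 23284 genes in the table. They comprised 30 class I chains, 9 genes of the class I machinery, 12 class II genes and 3 others, of which Cd1d1 encodes a lipid-presenting molecule while H2-Ke2 and H2-Ke6 carry the prefix because of where they lie. Expression reached a log2 value of 4 in at least 6 libraries for 36 of the 54. The other 18, 16 class I chains and the class II genes H2-Ea-ps and H2-Eb2, stayed under that filter.

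MHC class I molecules consist of a heavy chain and the light chain beta-2-microglobulin (B2m), and present peptides cut by the proteasome and carried into the endoplasmic reticulum by the Tap1/Tap2 transporter. Most nucleated cells, epithelium included, make them, whereas class II molecules are made mainly by B cells, dendritic cells and macrophages and present peptides from endosomes, with the invariant chain Cd74 and the H2-DM proteins guiding the loading. Interferon gamma raises both pathways, class I through the co-activator Nlrc5 and class II through Ciita. H2-Q10 is a class I heavy chain made as a secreted protein and best known from liver.

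The study compared whole prostate tissue of mice homozygous for the null allele (6 libraries, "null") with that of wild-type mice (6 libraries). All mice were 4 months old and of a mixed 129/SvImJ and C57Bl/6J background. The labels name no Cre driver or transgene and give neither the MHC haplotype of each animal nor whether each library came from an animal of its own, and the spread that the p-values rest on is that of the libraries, part or all of which may be technical. RNA was poly-A selected before library preparation, per the labels. The question was which transcripts differ in the prostate when the targeted gene is missing.

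The promoters of 4 genes on which the results turn are given first. H2-Q10 is shown because it had the largest difference of all members, H2-K1 because it is a classical class I chain of similar promoter sequence and the opposite direction, B2m because it had the largest increase, and Tap1 because its start lies head to head with that of Psmb9 and both genes fell. Each sequence runs 5′ to 3′ in the direction of the gene, over 250 bases before and 50 after the start, and is credited to RefSeq on GRCm38.p6, a later build than the mm9 used by the submitters. Capitals mark matches, on either strand, to the Y box (CCAAT), a CRE-like X2 box (TGACGC), a kappaB site (GGGGATTCC), 2 forms of the core of an interferon-stimulated response element (ISRE; GAAANNGAA and GAANNGAAA) and a TATA box (TATAAA).
H2-Q10, chr17:35469839-35470138, plus strand: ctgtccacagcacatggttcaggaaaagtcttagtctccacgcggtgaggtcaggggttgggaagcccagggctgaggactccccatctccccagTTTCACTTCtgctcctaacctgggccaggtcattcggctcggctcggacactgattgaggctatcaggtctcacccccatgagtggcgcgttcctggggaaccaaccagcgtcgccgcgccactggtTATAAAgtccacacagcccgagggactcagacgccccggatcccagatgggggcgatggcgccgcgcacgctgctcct
H2-K1, chr17:34000284-34000583, minus strand: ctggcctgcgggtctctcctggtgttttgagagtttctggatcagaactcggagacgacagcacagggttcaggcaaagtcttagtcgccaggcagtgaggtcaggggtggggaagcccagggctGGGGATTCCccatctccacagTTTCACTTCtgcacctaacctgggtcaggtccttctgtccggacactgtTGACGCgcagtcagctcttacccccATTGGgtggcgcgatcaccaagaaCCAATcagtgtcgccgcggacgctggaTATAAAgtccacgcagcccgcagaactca
B2m, chr2:122147437-122147736, plus strand: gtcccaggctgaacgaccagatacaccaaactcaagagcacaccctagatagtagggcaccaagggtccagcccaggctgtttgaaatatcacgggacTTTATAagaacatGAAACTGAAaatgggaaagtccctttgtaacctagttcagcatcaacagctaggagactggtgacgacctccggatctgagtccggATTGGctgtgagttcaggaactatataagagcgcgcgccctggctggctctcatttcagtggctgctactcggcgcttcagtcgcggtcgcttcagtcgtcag
Tap1, chr17:34187306-34187605, plus strand: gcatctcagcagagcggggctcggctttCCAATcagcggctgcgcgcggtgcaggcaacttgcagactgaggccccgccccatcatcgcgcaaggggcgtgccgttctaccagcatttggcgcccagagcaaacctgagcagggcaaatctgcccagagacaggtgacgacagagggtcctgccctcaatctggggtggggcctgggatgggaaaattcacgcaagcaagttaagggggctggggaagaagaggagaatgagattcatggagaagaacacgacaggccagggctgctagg

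The H2-K1 window held the Y box, the X2 box, the kappaB site, the second ISRE form and the TATA box. The H2-Q10 window held only the second ISRE form and the TATA box of these letters, although its best local alignment with the H2-K1 window was 82.7% identical over 249 columns and that with H2-D1 84.5% over 303 columns. The B2m window held the Y box, the first ISRE form and, on the minus strand, the TATA box, and the Tap1 window held only the Y box. Windows were given for 38 of the 54 members. A gene was counted if any of its windows held the match, whereas the shares of all windows count single windows. The Y box was present in 19 of 22 class I chain genes and in 8 of 8 class II genes with a window, against 37.4% of all 32851 windows. Only H2-D1, H2-K1, H2-M3 and H2-Q4 among the class I chains held the X2 box, against 7.4% of all windows, and only H2-D1, H2-K1, H2-Q6 and H2-Q7 held the kappaB site, against 0.25%. The second ISRE form was in 8 of the 22 class I chain genes with a window, against 7.52% of all windows. The first ISRE form was in 8.56% and the TATA box in 13.6% of all windows. A match is a description of these letters and not of binding, and the X2 and kappaB groups each held genes that rose and genes that fell.

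Values are the authors' deposited log2 expression values, and levels of different genes are not comparable because they are not per length. On the deposited scale a difference of 1 is a doubling. Which transformation was used is not stated, so folds near the floor may not be those of the transcripts. The depth behind each library is unknown. As a guide to the floor, 1123 olfactory receptor genes had a median of 2.85, and their 95th percentile was 3.51. Of the 15096 tested genes, 53.1% were called different between null and wild type, 25.1% lower and 28.0% higher in null, by limma with Benjamini-Hochberg adjustment at 0.05. The groups did not overlap in 15.2% of genes in the lower and in 17.4% in the higher direction. The libraries fell into 4 sets, null 1, 2 and 5, null 3, 4 and 6, wild type 1 to 3 and wild type 4 to 6. Over well expressed genes the median gap between libraries was 0.0659 within a null set and 0.144 across null sets, 0.0563 within a wild-type set and 0.109 across wild-type sets, and 0.228 between genotypes. The labels say nothing of what the sets are. A fit on the 4 set means, with only 2 values a genotype, called 6.96% of genes lower and 7.58% higher, and its adjusted p, also from limma, is given beside results as the set-mean adjusted p. Seminal vesicle secretory genes had linear sums of 108334 to 1341673 in null and 105.1 to 3479 in wild-type libraries. Svs3a, Svs6 and Sva reached a value of 4 in null libraries alone. These sums also split by set. Null 1, 2 and 5 had at least 335741, whereas null 3, 4 and 6 had at most 242756. Wild type 1 to 3 had 3306 or more, against 124.5 or less for wild type 4 to 6. The part of this split in results that depend on the sets, class II included, was not tested. The amount of seminal vesicle tissue in each sample cannot be told apart from expression in the prostate.

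The members as a whole leaned to lower expression in the null prostate. By limma, 21 of the 36 tested members fell (58.3%, against 25.1% of all tested genes) and 5 rose (13.9%, against 28.0%), and 10 were not called. The median log2 difference, null minus wild type, was -0.44 over the tested members and 0.0118 over all tested genes. The groups did not overlap for 11 of the 36 in the lower direction (against 15.2% of all tested genes) and for 4 in the higher (against 17.4%). Over set means 5 members were lower (H2-Q10, H2-M3, Psmb9, Tap1 and H2-DMb1) and 1, B2m, was higher, against 6.96% and 7.58% of all tested genes. The 5 that rose were B2m, H2-K1, H2-D1, H2-Q2 and Tapbp, all of the class I pathway.

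**Figure D1:**
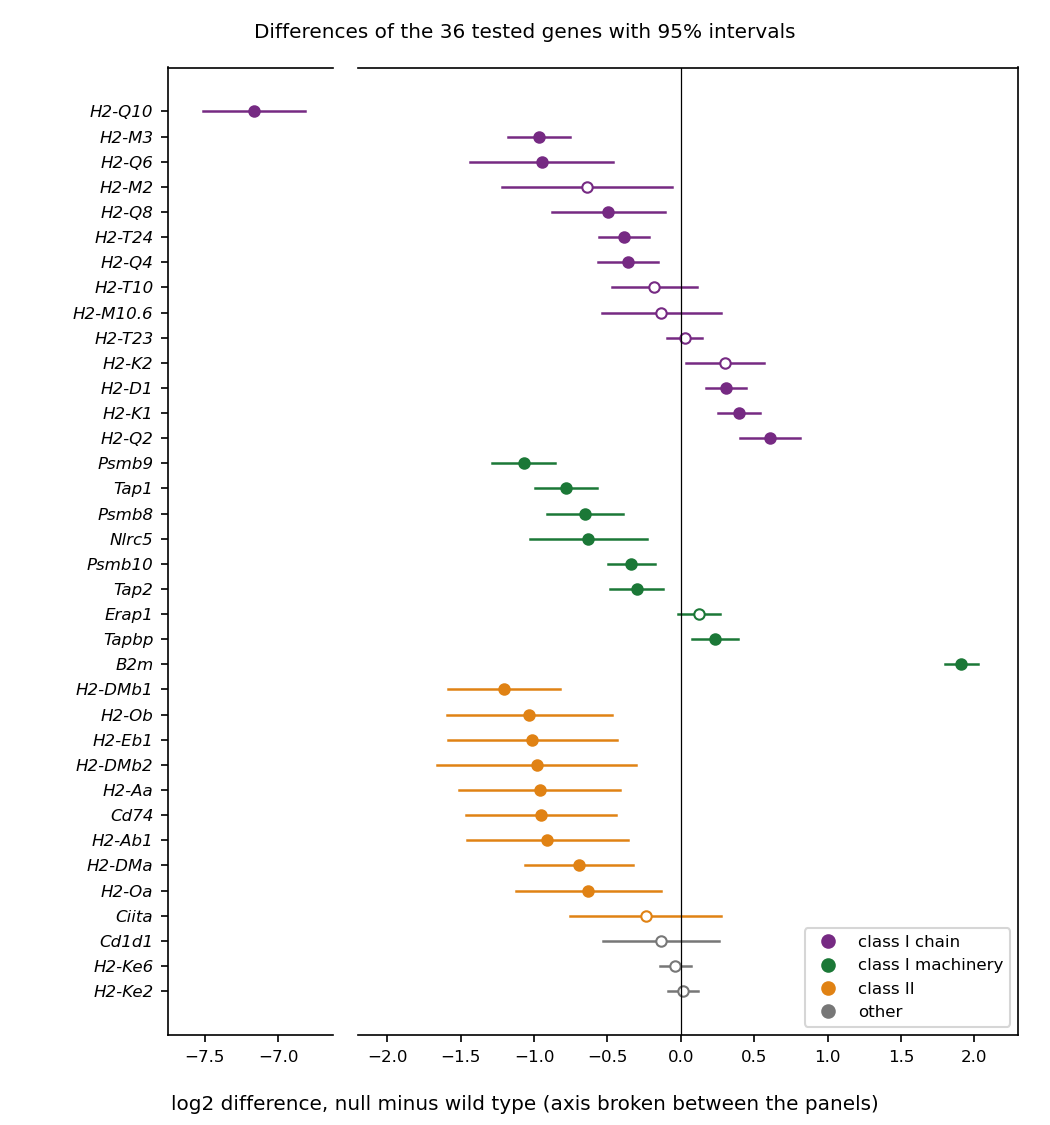
Log2 difference, null minus wild type, of the 36 tested members with 95% intervals from limma (n = 6 libraries each), grouped by class; filled points passed an adjusted p of 0.05, open points did not, and the x axis is broken to show H2-Q10. H2-Q10 lies at -7.17, B2m at 1.91, and 9 of the 10 class II genes are filled and below 0.

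Among the class I chains the secreted H2-Q10 dominated: it was near the floor of the assay in null prostates and well expressed in wild-type ones. The classical chains H2-K1 and H2-D1 and the nonclassical H2-Q2 rose modestly, while H2-M3, H2-T24, H2-Q4, H2-Q6 and H2-Q8 fell. Of the 14 class I chains tested, 6 fell, 3 rose and 5 were not called, with a median difference of -0.27. The shares called, 42.9% lower and 21.4% higher, stand against 25.1% and 28.0% of all tested genes.

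H2-Q10 had log2 values of 3.59, 3.44, 4.00, 4.32, 4.36 and 4.12 in null libraries 1 to 6, against 10.97, 10.91, 10.89, 11.31, 11.36 and 11.37 in wild-type libraries 1 to 6. No library of one genotype came near the other, and 1 null library lay under the floor's 95th percentile of 3.51. Its mean was 3.97 ± 0.38 in null and 11.13 ± 0.23 in wild-type libraries (SD, n = 6 each). The difference of -7.17 (SE 0.16), a 143.6-fold lower level in null on the deposited scale, had an adjusted p of 4.34e-13 and a set-mean adjusted p of 0.000222. Because the null values lie close to the floor, the size of this fold rests on where the floor lies. H2-Q10 ranked 5 from the most lowered of the 15096 tested genes. Of the 3 hepatocyte markers tested none fell and 1, Cyp2e1, rose, against 25.1% lower and 28.0% higher of all tested genes. Such a small count does not set these markers apart from other genes. Albumin (Alb), under the filter, spanned 3.13 to 3.98 in null libraries and 2.36 to 3.47 in wild-type libraries.

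H2-K1, a classical class I heavy chain found on most cells, ranged from 13.84 to 14.17 with a median of 14.05 in null libraries, against 13.50 to 13.76 with a median of 13.64 in wild-type libraries. H2-D1, the other classical chain, ranged from 12.91 to 13.16 with a median of 12.98 in null libraries, against 12.54 to 12.84 with a median of 12.68 in wild-type libraries. H2-Q2, a nonclassical chain, ranged from 7.59 to 8.19 with a median of 7.94 in null libraries, against 7.22 to 7.42 with a median of 7.29 in wild-type libraries. For each of the 3 genes every null library lay above every wild-type library. Of the 14 tested class I chains, 3 lay wholly higher in null, against 17.4% of all tested genes, and 3 wholly lower, against 15.2%. The count in the higher direction is near the share of all tested genes. The differences were 0.40 (SE 0.066) for H2-K1, 0.31 (SE 0.065) for H2-D1 and 0.61 (SE 0.095) for H2-Q2, with adjusted p of 0.000165, 0.00113 and 9.40e-05. None passed over set means, where the adjusted p was 0.103, 0.169 and 0.0599.

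H2-M3, which presents peptides that begin with N-formylmethionine, ranged from 6.10 to 6.54 with a median of 6.30 in null libraries, against 7.10 to 7.45 with a median of 7.28 in wild-type libraries. The groups lay well apart, and the difference of -0.97 (SE 0.099) had an adjusted p of 1.64e-06 and a set-mean adjusted p of 0.0212. H2-T24, a nonclassical chain of the T region, ranged from 6.82 to 7.15 with a median of 6.99 in null libraries, against 7.27 to 7.53 with a median of 7.38 in wild-type libraries, again without overlap (difference -0.39, adjusted p = 0.000775, set-mean adjusted p = 0.13). The Q-region genes H2-Q4, H2-Q6 and H2-Q8 also fell, but their groups overlapped.

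H2-Q6, a gene of the Qa-2 group, ranged from 5.56 to 6.18 with a median of 5.70 in null libraries, against 5.95 to 7.29 with a median of 6.81 in wild-type libraries, with all 3 wild-type libraries 1 to 3 at 7.13 or more and libraries 4 to 6 at 6.49 or less. H2-Q4 ranged from 8.89 to 9.25 with a median of 9.03 in null libraries, against 9.18 to 9.68 with a median of 9.39 in wild-type libraries. H2-Q8, also of the Qa-2 group, ranged from 4.77 to 5.32 with a median of 5.12 in null libraries, against 5.03 to 6.01 with a median of 5.69 in wild-type libraries. Differences were -0.95 for H2-Q6 (adjusted p = 0.00287), -0.36 for H2-Q4 (adjusted p = 0.00575) and -0.49 for H2-Q8 (adjusted p = 0.0311). Without wild-type libraries 1 to 3 the adjusted p was 0.049 for H2-Q6, 0.12 for H2-Q4 and 0.526 for H2-Q8, so the calls of H2-Q4 and H2-Q8 were lost. The difference of H2-Q6 was -1.45 against wild type 1 to 3 and -0.45 against wild type 4 to 6, and its set-mean adjusted p was 0.128.

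The class I chains that were not called were H2-T23, H2-T10, H2-K2, H2-M2 and H2-M10.6. H2-T23 encodes Qa-1, the ligand of the inhibitory receptor CD94/NKG2A of natural killer cells, and ranged from 10.83 to 11.13 with a median of 11.01 in null libraries, against 10.90 to 11.04 with a median of 10.97 in wild-type libraries. Its groups overlapped fully, and the interval of the difference ran from -0.09 to 0.15. H2-T10, whose product binds some gamma-delta T cell receptors, spanned 5.57 to 6.23 in null libraries and 5.87 to 6.29 in wild-type libraries. H2-K2 spanned 6.33 to 6.83 in null libraries and 5.89 to 6.43 in wild-type libraries, with a difference of 0.30 and an adjusted p of 0.054. H2-M2 spanned 2.36 to 4.24 in null libraries and 3.72 to 4.71 in wild-type libraries, and H2-M10.6, of a family otherwise known from the vomeronasal organ, spanned 3.98 to 5.04 in null libraries and 4.14 to 4.94 in wild-type libraries. The 16 class I chains under the filter, among them H2-Q1, H2-Q7, H2-Q9, H2-T3, H2-T9, H2-T22, H2-Bl and most H2-M genes, had overlapping groups throughout and were not tested here. With no filter, H2-M10.3 (adjusted p = 0.027) and H2-T3 (adjusted p = 0.0376) were lower in null, both at values around the floor, and the other 14 were not called.

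Many of these chains share sequence, and the sources used here do not say how the authors' counting split such reads. In GENCODE vM21 transcripts, 19.0% of the 50-base stretches of H2-Q10 also occurred in another gene, most often H2-Q7, which itself stayed near the floor. The share was 9.63% for H2-K1, 12.8% for H2-D1, 16.1% for H2-Q2, 21.8% for H2-Q4, 32.0% for H2-Q6, 32.9% for H2-T10 and 0.576% for H2-M3, and none of B2m was shared. The values of H2-Q4, H2-Q6 and H2-T10, which share the most of these, are uncertain to that extent. H2-Q8 was not matched there.

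**Figure D2:**
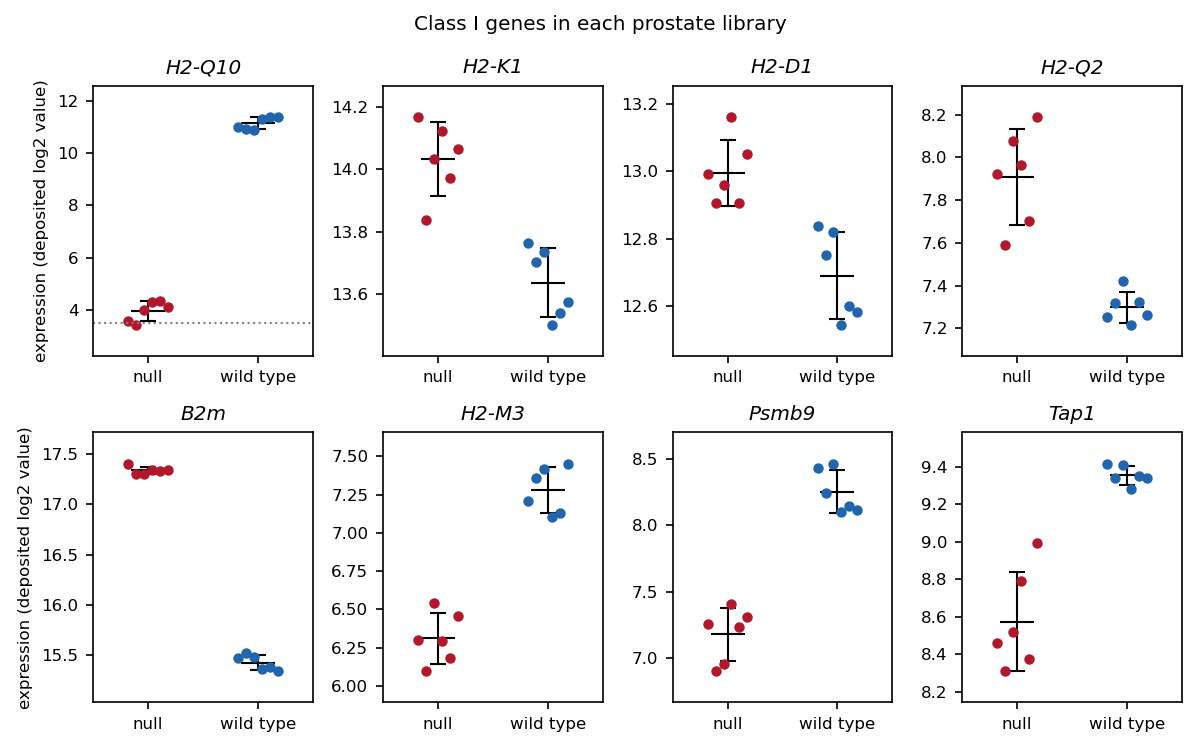
Deposited log2 value of 8 class I genes in each library (dots), null left of wild type, with bars for the mean ± SD (n = 6 each); the dotted line in the H2-Q10 panel is the 95th percentile of olfactory receptor genes, 3.51. H2-Q10 separates by about the whole axis, B2m, H2-K1, H2-D1 and H2-Q2 lie higher in null, and H2-M3, Psmb9 and Tap1 lie lower in null, in each case without overlap.

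The light chain B2m, which class I heavy chains need to reach the cell surface, rose far more than the classical heavy chains. B2m ranged from 17.30 to 17.40 with a median of 17.34 in null libraries, against 15.34 to 15.52 with a median of 15.42 in wild-type libraries. The null libraries lay close together and all far above the wild-type libraries. The mean was 17.34 ± 0.038 in null and 15.43 ± 0.074 in wild-type libraries (SD, n = 6 each), and the difference of 1.91 (SE 0.052), 3.76-fold, had an adjusted p of 1.59e-12 and a set-mean adjusted p of 0.003. B2m ranked 127 from the most raised of all tested genes.

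The ratio of B2m to each heavy chain was compared within each library by an exact two-sided permutation test, adjusted over the 5 ratios examined. The log2 ratio of B2m to H2-K1 was 3.30 ± 0.094 in null and 1.79 ± 0.061 in wild-type libraries (SD, n = 6 each; exact p = 0.00216, adjusted 0.00361). The log2 ratio of B2m to H2-D1 was 4.34 ± 0.095 in null and 2.74 ± 0.075 in wild-type libraries (SD, n = 6 each; exact p = 0.00216, adjusted 0.00361). An exact p of 0.00216 is the smallest that 6 against 6 libraries can give. The ratios rose by 1.51 and 1.60, so the light chain and the heavy chains did not change in proportion. Each rise is the B2m difference less that of the heavy chain, so the ratio test adds no separate support to those differences. The set means of the ratio to H2-K1 were 3.35 and 3.25 in the null sets and 1.76 and 1.82 in the wild-type sets, and those of the ratio to H2-D1 were 4.41 and 4.27 in the null sets and 2.69 and 2.79 in the wild-type sets. Over 2 against 2 set means an exact permutation test cannot give a p below 0.333. The seminal vesicle gene Svs2 spanned 11.62 to 19.36 in null libraries and 4.52 to 11.26 in wild-type libraries. It split by set: null 1, 2 and 5 stood at 17.86 or more, null 3, 4 and 6 at 12.56 or less. Wild type 1 to 3 stood at 11.15 or more, wild type 4 to 6 at 4.81 or less. Svs5 spanned 14.39 to 17.87 in null libraries and 4.00 to 9.22 in wild-type libraries. Its wild-type sets lay apart (9.20 or more against 4.32 or less), while its null sets overlapped. For Svs3a the sets overlapped within each genotype. The part of seminal vesicle tissue in the B2m difference was not tested.

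The genes that supply class I peptides mostly fell. Of the 9 machinery genes, all tested, 6 fell (Psmb9, Tap1, Psmb8, Nlrc5, Psmb10 and Tap2; 66.7%, against 25.1% of all tested genes), 2 rose (B2m and Tapbp; 22.2%, against 28.0%) and Erap1 was not called. The median difference was -0.34. The groups of Psmb9, Tap1, Psmb8 and Psmb10 did not overlap, against 15.2% of all tested genes in the lower direction.

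The immunoproteasome subunits replace the standard catalytic subunits of the proteasome in immune cells and after interferon. Psmb9 ranged from 6.90 to 7.40 with a median of 7.25 in null libraries, against 8.10 to 8.46 with a median of 8.19 in wild-type libraries, with a difference of -1.07 (SE 0.1; adjusted p = 7.20e-07, set-mean adjusted p = 0.0111). Psmb8 ranged from 7.81 to 8.41 with a median of 8.07 in null libraries, against 8.50 to 8.96 with a median of 8.81 in wild-type libraries, with a difference of -0.66 (adjusted p = 0.000385, set-mean adjusted p = 0.0674). Psmb10 ranged from 8.40 to 8.59 with a median of 8.53 in null libraries, against 8.66 to 9.10 with a median of 8.81 in wild-type libraries, with a difference of -0.34 (adjusted p = 0.00185, set-mean adjusted p = 0.132). Every null library was below every wild-type library for all 3 subunits. Only Psmb9 passed over set means.

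Of the 3 standard subunits they replace, 2 fell and 1 was not called, against 25.1% of all tested genes lower, and none passed over set means. Psmb7 fell by 0.28 (adjusted p = 0.000533) and Psmb6 by 0.20 (adjusted p = 0.00316), while Psmb5 spanned 8.90 to 9.45 in null libraries and 9.04 to 9.70 in wild-type libraries (adjusted p = 0.312). The log2 ratio of Psmb9 to Psmb6 was -3.70 ± 0.2 in null and -2.83 ± 0.12 in wild-type libraries (SD, n = 6 each; exact permutation p = 0.00216, adjusted 0.00361). The log2 ratio of Psmb8 to Psmb5 was -1.07 ± 0.37 in null and -0.59 ± 0.14 in wild-type libraries (SD, n = 6 each; exact permutation p = 0.0195, adjusted 0.0244), with overlap. Its set means were -1.38 and -0.77 in the null sets and -0.70 and -0.48 in the wild-type sets, so null libraries 3, 4 and 6 lay close to wild type 1 to 3. The set means of the Psmb9 to Psmb6 ratio were -3.68 and -3.72 in the null sets and -2.73 and -2.93 in the wild-type sets. The log2 ratio of Psmb10 to Psmb7 was -2.03 in null and -1.97 in wild-type libraries (exact permutation p = 0.584), so no shift of this ratio was detected.

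Tap1, one subunit of the peptide transporter, ranged from 8.31 to 8.99 with a median of 8.49 in null libraries, against 9.28 to 9.42 with a median of 9.34 in wild-type libraries, with a difference of -0.78 (SE 0.098; adjusted p = 1.25e-05, set-mean adjusted p = 0.0251). Tap2, the other subunit, ranged from 9.38 to 9.75 with a median of 9.54 in null libraries, against 9.65 to 10.09 with a median of 9.87 in wild-type libraries, with a difference of -0.30 (adjusted p = 0.00698). The groups were separate for Tap1 and overlapped for Tap2, whose call was lost without wild-type libraries 4 to 6 (adjusted p = 0.147) and without null libraries 1, 2 and 5 (adjusted p = 0.114). Nlrc5, the co-activator of class I genes, ranged from 6.39 to 7.10 with a median of 6.83 in null libraries, against 6.87 to 7.88 with a median of 7.39 in wild-type libraries (difference -0.63, adjusted p = 0.0106; 0.215 without wild-type libraries 1 to 3 and 0.0792 without null libraries 3, 4 and 6). Tapbp encodes tapasin, which holds class I molecules at the transporter. It ranged from 11.50 to 12.03 with a median of 11.80 in null libraries, against 11.48 to 11.61 with a median of 11.56 in wild-type libraries (difference 0.23, adjusted p = 0.0151). Its groups overlapped, and its call was lost without null libraries 3, 4 and 6 (adjusted p = 0.206), without wild-type libraries 1 to 3 (0.0992) or 4 to 6 (0.0592), and after quantile normalization (0.0988). Erap1, which trims peptides in the endoplasmic reticulum, spanned 10.04 to 10.45 in null libraries and 10.12 to 10.25 in wild-type libraries and was not called (adjusted p = 0.131), but without null libraries 1, 2 and 5 it rose by 0.25 (adjusted p = 0.000352).

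In the order of genes on chromosome 17, the longest run of tested members called lower held 12 genes. From H2-Oa through H2-DMa, H2-DMb2, H2-DMb1, Psmb9, Tap1, Psmb8, Tap2, H2-Ob, H2-Ab1 and H2-Aa to H2-Eb1, 12 members in a row were lower in null, 8 of class II and 4 of the class I machinery, with no other protein-coding gene between them except 1 after H2-Oa. Of all tested genes, 25.1% were lower in the same fit. Over set means 3 of these 12 members, H2-DMb1, Psmb9 and Tap1, were lower, against 6.96% of all tested genes. Without wild-type libraries 1 to 3 the calls of H2-Oa, H2-DMa, H2-DMb2 and H2-Ob were lost, and without wild-type libraries 4 to 6 that of Tap2. Leaving out null libraries 1, 2 and 5, those of H2-Oa, H2-DMa, Tap2, H2-Ab1, H2-Aa and H2-Eb1 were lost. Leaving out null libraries 3, 4 and 6, those of H2-Oa, H2-DMb2 and H2-Eb1 were lost. In another stretch, H2-D1, H2-Q1, H2-Q2, H2-Q4, H2-Q6, H2-Q7 and H2-Q10 followed each other directly. Here the directions were mixed: H2-D1 and H2-Q2 rose, H2-Q4, H2-Q6 and H2-Q10 fell, and H2-Q1 and H2-Q7 were under the filter. H2-T24 fell and its direct neighbour H2-T23 was not called. B2m, the member with the largest increase, lies on chromosome 2.

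**Figure D3:**
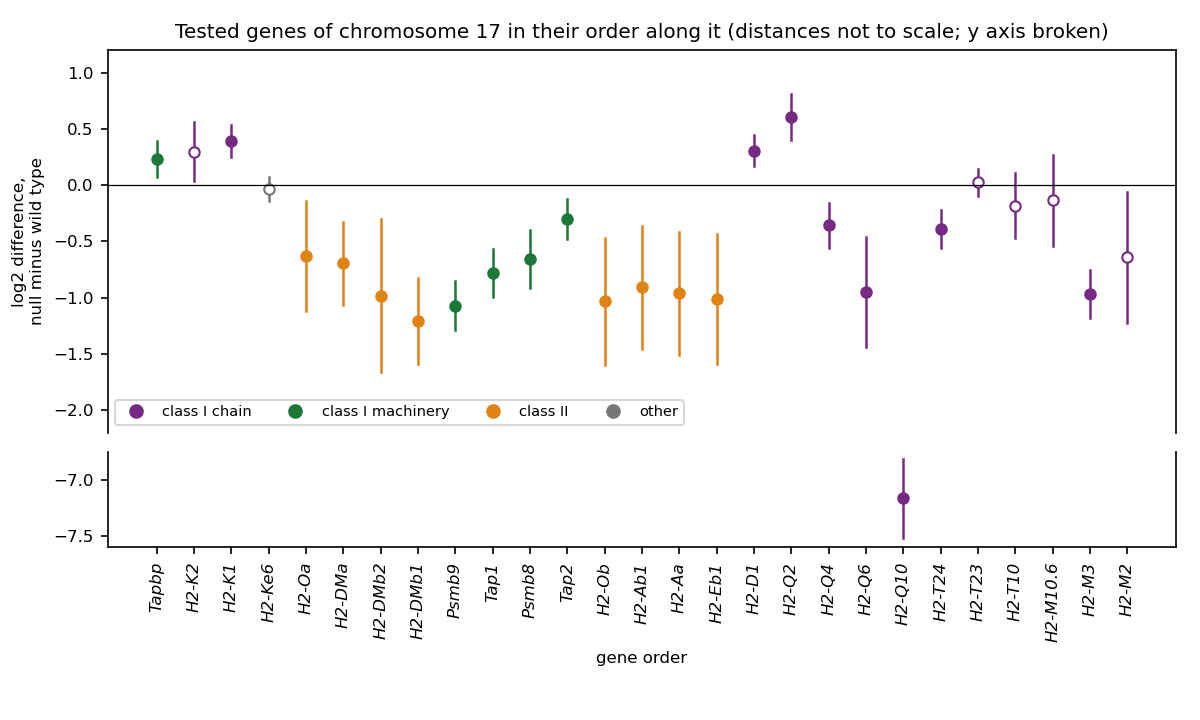
Log2 difference, null minus wild type, of tested members in their order along chromosome 17 (x axis: rank, not distance), with filled points for an adjusted p under 0.05 and a broken y axis for H2-Q10. The 12 neighbours that run to H2-Eb1 all lie below 0, whereas the stretch from H2-D1 to H2-Q10 has points on both sides of 0.

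Class II genes were lower in the null prostate as a group, by about a factor of 2 for the main chains over all 12 libraries. That size depended on the wild-type set. For H2-Aa, H2-Ab1 and H2-Eb1 the differences were -1.53, -1.47 and -1.61 against wild type 1 to 3. Against wild type 4 to 6 they were -0.39, -0.34 and -0.42. Of the 10 tested, 9 fell (against 25.1% of all tested genes), none rose, and Ciita was not called. The median difference was -0.96. The wild-type libraries were themselves split: in all 10 genes libraries 1 to 3 lay above libraries 4 to 6. All null libraries lay below wild type 1 to 3 in all 10 genes, and below wild type 4 to 6 in 4 of them, Cd74, H2-Aa, H2-DMb1 and H2-Eb1. The share of all tested genes whose sets lay apart in these ways was not counted. These counts therefore do not show a trait particular to class II. Over set means 1 gene of the 10, H2-DMb1, was lower, against 6.96% of all tested genes. Without wild-type libraries 1 to 3 the median was -0.39, with 5 of 10 lower (against 21.5% of all genes in that fit) and none higher (against 23.7%). Without null libraries 1, 2 and 5, 3 of 10 were lower.

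H2-Aa, the alpha chain of the classical I-A molecule, ranged from 9.67 to 10.26 with a median of 10.06 in null libraries, against 11.52 to 11.61 in wild type 1 to 3 and 10.41 to 10.47 in wild type 4 to 6. H2-Ab1, its beta chain, ranged from 9.38 to 10.03 with a median of 9.66 in null libraries, against 11.09 to 11.22 in wild type 1 to 3 and 9.93 to 10.09 in wild type 4 to 6. H2-Eb1, the beta chain of I-E, ranged from 9.52 to 10.09 with a median of 9.90 in null libraries, against 11.37 to 11.51 in wild type 1 to 3 and 10.22 to 10.34 in wild type 4 to 6. For H2-Aa and H2-Eb1 the null libraries lay below both wild-type sets, and for H2-Ab1 they overlapped wild type 4 to 6. The differences were -0.96 for H2-Aa (adjusted p = 0.00688), -0.91 for H2-Ab1 (adjusted p = 0.00915) and -1.01 for H2-Eb1 (adjusted p = 0.0066). Set-mean adjusted p was 0.176, 0.196 and 0.174. H2-Ea-ps, whose symbol marks a pseudogene of the I-E alpha chain, spanned 2.86 to 3.65 in null libraries and 2.79 to 3.42 in wild-type libraries, near the floor. The H2-Eb1 values are those of a beta chain transcript and do not show that an I-E molecule was made.

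Cd74, the invariant chain that blocks the groove until the endosome, ranged from 10.52 to 11.20 with a median of 10.91 in null libraries, against 11.27 to 12.39 with a median of 11.83 in wild-type libraries. The groups did not overlap, with a difference of -0.95 (SE 0.23; adjusted p = 0.00456, set-mean adjusted p = 0.133). All 3 of these calls of I-A and I-E chains and that of Cd74 were lost without null libraries 1, 2 and 5, where adjusted p ran from 0.0575 for Cd74 to 0.101 for H2-Ab1. That of H2-Eb1 was also lost without null libraries 3, 4 and 6 (adjusted p = 0.0541).

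The H2-DM proteins exchange the invariant chain fragment for peptide, and the H2-DO proteins inhibit them, mainly in B cells. H2-DMb1 ranged from 5.96 to 6.89 with a median of 6.41 in null libraries, against 7.18 to 8.02 with a median of 7.64 in wild-type libraries. Its groups lay apart, and it had the largest fall of the class, -1.20 (SE 0.18; adjusted p = 5.92e-05, set-mean adjusted p = 0.0449). H2-DMa, its partner chain, ranged from 6.40 to 7.27 with a median of 6.70 in null libraries, against 7.03 to 7.78 with a median of 7.43 in wild-type libraries (difference -0.69, adjusted p = 0.00358). H2-DMb2 spanned 3.25 to 4.71 in null libraries and 4.09 to 5.58 in wild-type libraries (adjusted p = 0.0175); 22.7% of the 50-base stretches of H2-DMb1 and 24.8% of those of H2-DMb2 occurred in another gene. The DO chains H2-Ob and H2-Oa were low: H2-Ob spanned 4.12 to 5.29 in null libraries and 5.17 to 6.45 in wild-type libraries (difference -1.03, adjusted p = 0.00438), and H2-Oa spanned 3.30 to 4.05 in null libraries and 3.45 to 4.69 in wild-type libraries (difference -0.63, adjusted p = 0.0315). Without wild-type libraries 1 to 3 the calls of H2-DMa, H2-DMb2, H2-Oa and H2-Ob were lost, with adjusted p of 0.0921, 0.314, 0.43 and 0.0961. H2-Oa also lost its call in 7, and H2-Q8 in 6, of the 12 fits that each left out 1 library. H2-Eb2, under the filter, spanned 3.21 to 3.78 in null libraries and 3.41 to 5.20 in wild-type libraries, and with no filter it was lower in null (adjusted p = 0.0153). H2-DMb2 reached a value of 4 in 3 null and 6 wild-type libraries and H2-Oa in 2 null and 4 wild-type libraries, so both passed the filter mainly through wild type.

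Ciita, the co-activator that sets class II transcription, ranged from 6.10 to 6.97 with a median of 6.53 in null libraries, against 6.11 to 7.44 with a median of 6.80 in wild-type libraries, and the groups overlapped (difference -0.24, adjusted p = 0.422). Against wild type 1 to 3 alone it fell by 0.77 (adjusted p = 0.00251), whereas against wild type 4 to 6 alone the difference was 0.29 (adjusted p = 0.184). The sign therefore turned with the wild-type set used.

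**Figure D4:**
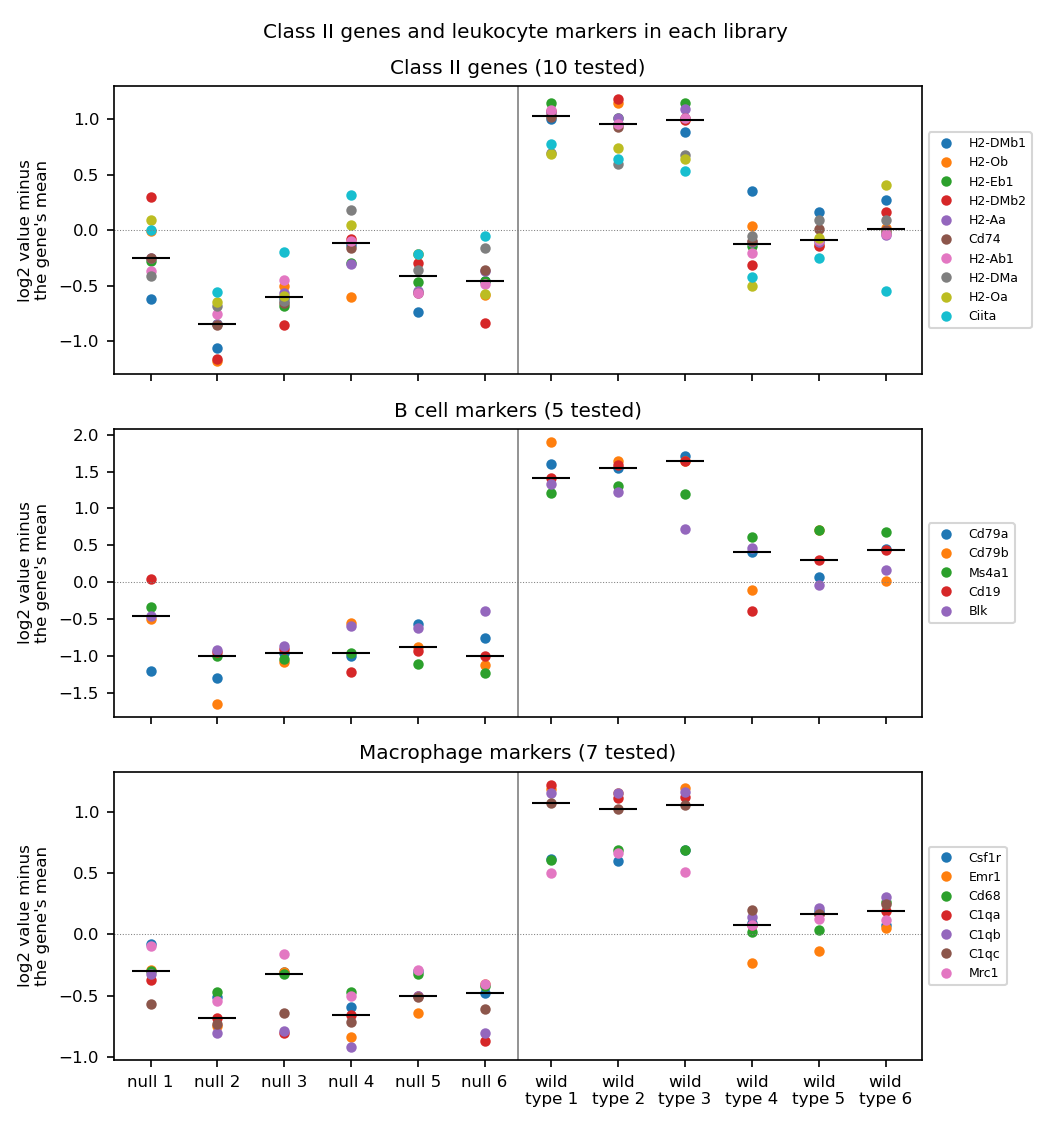
Deposited log2 value minus each gene's mean over the 12 libraries, for 10 class II genes, 5 B cell markers and 7 macrophage markers (1 dot a gene, black dash the median) in each library, null left of wild type. In all groups wild-type libraries 1 to 3 stand above wild-type libraries 4 to 6, and the null libraries stand lowest or near the level of wild type 4 to 6.

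Markers of B cells, macrophages and leukocytes in general were also lower in null, while most dendritic cell markers were not called. Of the 6 B cell markers, Pax5 was under the filter and Blk passed it through the wild-type libraries alone; linear sums over the list were 70.7 to 117.6 in null and 184.4 to 430 in wild-type libraries. Over set means Cd79a and Ms4a1 were lower. All 7 macrophage markers fell (1 over set means and 7 without wild type 1 to 3), with sums of 1535 to 2026 in null, 4756 to 4823 in wild type 1 to 3 and 2620 to 2806 in wild type 4 to 6. All 4 general leukocyte markers fell (0 over set means and 2 without wild type 1 to 3), with sums of 609.3 to 861.8 in null and 877.7 to 1885 in wild-type libraries. Of 7 dendritic cell markers 2 fell and none rose (28.6% lower, against 25.1% of all tested genes; 0 lower and 1 higher without wild type 1 to 3), with sums of 243.4 to 308 in null and 233.7 to 404.7 in wild-type libraries. Of 4 T cell markers tested 2 fell (0 over set means and 1 without wild type 1 to 3), with sums of 126.7 to 143.2 in null and 131.6 to 274.2 in wild-type libraries. For all these lists, the shares of all tested genes that were lower were 25.1% in the main fit, 6.96% over set means and 21.5% without wild type 1 to 3. In such bulk tissue fewer cells of a type and less RNA per cell cannot be told apart, and the part of these cells in the class II and class I differences was not tested. The luminal epithelial markers were present in every library, and among them Krt8 and Krt18 fell and Epcam rose, with sums of 25837 to 30671 in null and 26064 to 31751 in wild-type libraries.

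Cd1d1, which presents lipids to natural killer T cells, spanned 4.49 to 5.53 in null libraries and 4.89 to 5.58 in wild-type libraries (adjusted p = 0.571). H2-Ke2, listed by RefSeq as a synonym of the prefoldin subunit gene Pfdn6, spanned 9.12 to 9.39 in null libraries and 9.18 to 9.31 in wild-type libraries (adjusted p = 0.835), and H2-Ke6 spanned 10.09 to 10.31 in null libraries and 10.15 to 10.38 in wild-type libraries (adjusted p = 0.555). None of these 3 was called. Of the 50-base stretches of H2-Ke6, 70.5% also occurred in a readthrough gene, Gm20427.

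Genes around the 2 pathways were counted in the same fit. Of 9 tested genes of the interferon gamma axis 7 fell, 1 rose and 1 was not called (77.8% lower and 11.1% higher, against 25.1% and 28.0% of all tested genes). Over set means 3 fell and 1 rose, against 6.96% and 7.58% of all tested genes. Leaving out wild-type libraries 1 to 3, 5 were lower and 1 higher, against 21.5% and 23.7% of all genes in that fit. Irf2, an interferon regulatory factor, spanned 9.33 to 9.48 in null libraries and 10.50 to 10.82 in wild-type libraries, a fall of 1.27 (adjusted p = 4.58e-10, set-mean adjusted p = 0.00348). The receptor chains Ifngr1 and Ifngr2 fell by 0.90 and 0.61 (adjusted p = 4.40e-06 and 2.97e-06), and their groups did not overlap. Jak2, the kinase bound to Ifngr2, went the other way: it spanned 10.49 to 11.02 in null libraries and 9.80 to 9.99 in wild-type libraries, a rise of 0.84 (adjusted p = 9.48e-07). The ligand Ifng was under the filter at 2.82 to 3.78 in null libraries and 3.17 to 3.89 in wild-type libraries.

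Among 13 loading chaperones and proteasome regulators 4 fell, 3 rose and 6 were not called (30.8% lower and 23.1% higher, near the 25.1% and 28.0% of all tested genes), and none passed over set means. Npepps, a cytosolic aminopeptidase, rose by 0.28 (adjusted p = 0.000116), while the proteasome activator subunits Psme1 and Psme2 fell by 0.25 (adjusted p = 0.00384) and 0.31 (adjusted p = 0.00387). Lnpep, an endosomal aminopeptidase of cross-presentation, rose by 0.57 (adjusted p = 0.00561). The chaperones Calr, Canx and Pdia3 that fold class I molecules were not called.

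Other class I-like genes outside the rule were 16 in the table, 6 of them tested, of which 3 rose, 1 fell and 2 were not called, against 28.0% higher and 25.1% lower of all tested genes. Mr1, which presents vitamin B metabolites and pairs with B2m, spanned 10.71 to 11.20 in null libraries and 9.95 to 10.26 in wild-type libraries, a rise of 0.86 (adjusted p = 5.09e-06, set-mean adjusted p = 0.0286). Hfe, the B2m-bound regulator of iron uptake, rose by 0.88 (adjusted p = 0.00436) and Azgp1, a secreted class I-like glycoprotein, by 0.33 (adjusted p = 0.0102), both with overlap. Fcgrt, the neonatal Fc receptor chain, fell by 0.33 (adjusted p = 0.0191). Leaving out wild-type libraries 1 to 3, 1 of the 6 was higher and none lower, against 23.7% and 21.5% of all genes in that fit.

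Of 13 class II proteases and regulators 4 fell, 5 rose and 4 were not called (30.8% lower and 38.5% higher, against 25.1% and 28.0% of all tested genes), and over set means 2 rose, Creb1 and Ctsd (against 7.58%). Creb1, one of the factors that bind the X2 box, rose by 0.51 (adjusted p = 2.51e-07). Ctsd, an aspartic protease of lysosomes, spanned 14.95 to 15.26 in null libraries and 14.26 to 14.47 in wild-type libraries, a rise of 0.66 (adjusted p = 1.09e-06). Rfxap, a subunit of the RFX complex of class II promoters, rose by 0.32 (adjusted p = 0.000867). Ctss, the cathepsin that removes the invariant chain in antigen-presenting cells, spanned 7.63 to 8.26 in null libraries and 8.53 to 9.80 in wild-type libraries, a fall of 1.27 (adjusted p = 0.00153, set-mean adjusted p = 0.12), without overlap. Of 8 tested costimulators and T cell co-receptors 5 fell and none rose (62.5% lower, against 25.1% of all tested genes). Without wild-type libraries 1 to 3, 1 of them was lower, against 21.5% of all genes in that fit, and none higher. Icosl, the ligand of the costimulatory receptor ICOS, fell by 0.53 (adjusted p = 1.48e-05, set-mean adjusted p = 0.0306), with no overlap, and Cd4, Cd40 and Cd80 fell by 0.77, 0.70 and 0.48 (adjusted p = 0.0201, 0.0259 and 0.0333).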

How the data were processed

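The authors deposited 1 table of log2 expression values per gene for 12 libraries, 6 null and 6 wild type; the values behave like variance-stabilised counts, but which transformation was used is not stated and depth is unknown. Per the submitters' processing notes, which give no roles or order, the tools were TopHat2 2.0.4, DESeq, Cufflinks 2.0.2 and CASAVA 1.8.2 and the build was mm9; per the labels, RNA was extracted with a MagMAX-96 kit, poly-A selected and sequenced on a HiSeq 2000 after TruSeq preparation. The targeted gene's level is not reported here.

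The 15096 genes that reached 4 on the log2 scale in 6 or more libraries were fitted with genotype as the only term by limma 3.58.1 in R 4.3.3 (trend and robust moderation), adjusted by Benjamini-Hochberg over all of them, with a threshold of 0.05 and 95% intervals. Ratios of named pairs were compared by exact permutation (scipy 1.17.1). Linear sums add 2 to the power of each value over a list, and like the folds they hold on the deposited scale only. Promoters, gene order and 50-base stretches came from RefSeq (51 of 54 symbols matched) and GENCODE vM21 tables, and alignments were made with Biopython 1.88; since those builds differ from the files', they served for sequence, names and order only.

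Members, gene lists and library sets were chosen with earlier results of these data known. All tested members were named, and from each related list up to 4 called genes by adjusted p; other list genes were named after their values were seen. Alternatives were other scalings, filters, tests, the set means, and leaving out sets or single libraries.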

Additional observations from a re-analysis of the deposited data

Results flagged for a closer look

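H2-K2 in wild-type library 6 stood at 5.89, apart from the other wild-type libraries, of which the nearest was at 6.24, a gap of 64% of that group's range. It was the only such library among 72 groups checked (36 genes in 2 genotypes), where chance alone gives about 1 in 20, so 1 flag is no more than chance would give. H2-K2 was not called in the comparison (adjusted p = 0.054).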

How the results depend on the processing

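H2-Q10, B2m, H2-M3, Psmb9, Tap1, H2-DMb1 and H2-T10 kept their direction and their side of the threshold in all 23 alternatives, with H2-Q10 between -7.38 and -6.95 and B2m between 1.84 and 1.97. Of 36 member results, 32 were unchanged after quantile normalization, 33 after upper quartile scaling, 35 without limma's trend and robust options, 36 with no filter, and 31 under the exact rank-sum test; all 32 tested at a filter of 5 were unchanged. These scalings shifted the median of all genes by -0.00992 (quantile) and -0.0706 (upper quartile). Over set means 20 results lost their call: class I chains counted 2 lower and 0 higher, the machinery 2 lower and 1 higher, class II 1 lower, related genes 8 called and all genes 2195, against 8013 over 12 libraries. The higher machinery count was also 1, B2m, after quantile normalization, under the rank-sum test, and without null libraries 3, 4 and 6, wild type 1 to 3 or wild type 4 to 6. Class II counted 3 lower without null libraries 1, 2 and 5 and 5 without wild type 1 to 3, where 21 related genes were called. H2-K2 passed the threshold in 6 of its 23 alternatives (smallest adjusted p 0.00948, after quantile normalization) and H2-M2 in 4 of its 22 (smallest 0.0292, leaving out null library 4). With no filter H2-M10.3, H2-T3 and H2-Eb2 were called lower as well, giving 8 class I chains and 10 class II genes lower. Signs turned only in genes that were not called. H2-T23 was at -0.0582 (quantile), -0.0453 (upper quartile), -0.064 without null libraries 3, 4 and 6, and -0.0037 to 0.0566 leaving out single libraries. H2-Ke2 was at -0.0238, -0.0572 and -0.0446 in those 3 fits and -0.0121 to 0.0431 leaving out single libraries. Without null libraries 3, 4 and 6, H2-M10.6 was at 0.0496, Erap1 at -0.0056, Cd1d1 at 0.1336 and H2-Ke6 at 0.0338. H2-M10.6 was at 0.0225 without wild type 4 to 6, and Ciita at 0.288, Cd1d1 at 0.0911 and H2-Ke6 at 0.0167 without wild type 1 to 3. The cause was not tested. No paired analysis was possible because the labels give no replicate numbers that tie a null to a wild-type library.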

Other observations

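Ligands of the activating receptor NKG2D are class I-like proteins that do not need B2m. All 8 of their genes in the table, H60b, H60c, Raet1a, Raet1b, Raet1c, Raet1d, Raet1e and Ulbp1, were under the filter in both genotypes. Raet1a spanned 2.35 to 4.03 in null libraries and 2.90 to 3.93 in wild-type libraries, and Ulbp1 spanned 2.51 to 3.43 in null libraries and 2.31 to 2.99 in wild-type libraries, so a difference in these ligands was not detectable here. Cd274, which encodes the inhibitory ligand PD-L1, spanned 6.14 to 6.34 in null libraries and 6.10 to 6.95 in wild-type libraries and was not called (difference -0.29, adjusted p = 0.0874 by limma). Mill2, another class I-like chain, spanned 6.09 to 6.79 in null libraries and 6.06 to 6.45 in wild-type libraries and was not called either (adjusted p = 0.503).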
